A study of Mus musculus with 6 samples.

Results

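The genes described here are 10 genes of the NF-kB pathway, namely the NF-kB subunits Nfkb1, Nfkb2, Rela and Relb, the inhibitors Nfkbia and Tnfaip3, the receptors Tnfrsf12a and Tnfrsf1a, and the inflammatory targets Icam1 and Ccl2. They were chosen by name, with earlier results of these data known, and all 10 are among the 23337 genes of the deposited count table. The question was how these genes were expressed when SRF, the serum response factor, was overexpressed in maturing cardiomyocytes (CMs), a setting in which the study examined inflammatory signaling that included tumor necrosis factor. Wildtype mice received AAV9-cTNT-SRF-2A-GFP (SRF-OE) or AAV9-cTNT-GFP (GFP, the control) on postnatal day 1 (5e8 vg per g), and RNA-seq was made from GFP+ CMs that were isolated and sorted on postnatal day 14. Both vectors use the cardiac troponin T promoter, both groups express GFP, and the dose is a mosaic one that transduces only some CMs.

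The labels list 3 libraries per group, but counts exist for 5 libraries, numbers 2 and 3 of SRF-OE and numbers 1, 2 and 3 of GFP. Under the name of SRF-OE replicate 1 the table has gene lengths in bp, with 0 zeros. For 8 of the 10 genes this column lies within 1% of the GENCODE exon length, and it was used only as a length. For Nfkb2 it is 0.78 times and for Tnfrsf12a 0.91 times that length. Of 20929 genes compared, 52.3% lie within 5% of it. The 5 libraries hold 14137433 to 23159631 counts each. Srf was at 360 and 748 CPM (counts scaled to library size with edgeR's TMM factors) in SRF-OE replicates 2 and 3 and at 67.3 and 85.1 CPM in GFP replicates 2 and 3, but at 338 CPM in the library labelled GFP1. The gene symbols stand under the heading for chromosomes and the lengths under that of a library, so the column names may be displaced by 1 position. In that case the column named GFP1 would hold an SRF-OE library, the replicate numbers would shift and each fold change over the 5 libraries would compare other groups than the labels say. This cannot be settled from the labels, so names were kept as deposited, and the fold changes of the 10 genes are given for the 5 libraries as labelled and, where tested, without the library labelled GFP1. The cardiomyocyte markers summed to 88127 to 93998 CPM in SRF-OE and 99038 to 144731 CPM in GFP, so the labelled cell type was present in all 5.

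NF-kB is a family of transcription factors that pair up through a shared DNA-binding domain. In resting cells the canonical pair, made of RELA and the product of Nfkb1, is held in the cytoplasm by inhibitors such as the product of Nfkbia. TNF receptor signaling triggers the destruction of the inhibitor, whereas RELB and the product of Nfkb2 form the pair of the alternative pathway. In the heart the pathway is known for its part in the response to injury and inflammation.

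Several of these genes are textbook targets of NF-kB itself, so the DNA before their RefSeq starts is shown first. Windows of 250 bases before a RefSeq start (GRCm38.p6) were at hand for 7 of the 10 genes, and Nfkb1, Relb and Ccl2 were not matched. The stretches printed for Nfkb2 and Tnfaip3 lie inside the GENCODE positions of these genes given below, and so not before those gene starts. The κB consensus was searched on both strands as GGGRNNYYCC, where R is A or G, Y is C or T and N is any base. It was found for 3 of the 7 genes, Nfkb2, Nfkbia and Tnfaip3, and in 8.23% of all 27025 genes with such a window. The CArG box, the sequence that SRF binds, was found in 0 of the 7 and in 1.62% of all genes. A match is a description of letters and not a binding site, and a site that departs from the pattern is not counted. The Icam1 window holds tggaaattcc, which departs from the κB pattern only at its first base. In the sequences below the letters that match the κB consensus are in capitals, other matches of Nfkb2 and Tnfaip3 are not shown, and each is read 5′ to 3′ on the strand of its gene.
Nfkb2, chr19:46304687-46304716, plus strand, within an annotated exon, 30 bases around overlapping matches: gggatcgtcacGGGAATTCCCCccctcggg
Nfkb2, chr19:46304712-46304736, plus strand, within an annotated exon, the last 25 bases before a RefSeq start: tcggggggccgaaaGGGGCTTTCCc
Nfkbia, chr12:55492648-55492897, minus strand, with no annotated exon: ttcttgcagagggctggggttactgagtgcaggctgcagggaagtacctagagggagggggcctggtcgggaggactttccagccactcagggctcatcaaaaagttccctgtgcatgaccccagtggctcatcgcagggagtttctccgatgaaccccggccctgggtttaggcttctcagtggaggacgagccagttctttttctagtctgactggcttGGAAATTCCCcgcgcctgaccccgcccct
Tnfaip3, chr10:19015411-19015440, minus strand, the last 30 bases before the start, in a window that partly overlaps an exon: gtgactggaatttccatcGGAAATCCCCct
Icam1, chr9:21015690-21015939, plus strand, with no annotated exon and no match, shown for contrast: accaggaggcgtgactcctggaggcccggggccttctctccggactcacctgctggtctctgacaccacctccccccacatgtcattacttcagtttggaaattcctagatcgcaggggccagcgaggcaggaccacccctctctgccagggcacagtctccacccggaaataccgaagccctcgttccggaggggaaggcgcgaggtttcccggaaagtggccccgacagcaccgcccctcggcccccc
The 3 genes with a match differed in how they varied between libraries: Nfkb2 spanned a 2.99-fold range, Nfkbia a 2.18-fold range and Tnfaip3 a 1.60-fold range from the lowest to the highest library.

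Compared per length, as RPKM, the 10 genes covered a wide range of levels. Tnfrsf12a was by far the most abundant, at 207 ± 96.6 RPKM (SD, n = 5 libraries). Nfkbia followed with 24.6 ± 7.18 RPKM and Rela with 16.7 ± 3.50 RPKM. Nfkb2 (12.9 ± 6.13 RPKM), Tnfrsf1a (10.7 ± 4.18 RPKM) and Relb (9.20 ± 5.50 RPKM) came next. The order within this middle group was not stable, since Rela exceeded Nfkb2 in 4 of 5 libraries, Nfkb2 exceeded Tnfrsf1a in 4 of 5 and Tnfrsf1a exceeded Relb in 3 of 5. The deposited length of Nfkb2, 3292 bp, is shorter than its GENCODE exon length of 4221 bp, so its rank depends on the length used. Nfkb1 (3.61 ± 0.20 RPKM), Icam1 (2.05 ± 0.86 RPKM), Tnfaip3 (0.78 ± 0.14 RPKM) and Ccl2 (0.51 ± 0.34 RPKM) were lowest, and each stood above the next in 5 of 5 libraries.

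With the 5 libraries as labelled, 0 of the 10 genes passed an adjusted p under 0.05 in either direction, against 0% of the 13754 genes tested, where the smallest adjusted p over all genes was 0.353 (edgeR's quasi-likelihood test, Benjamini-Hochberg adjustment). DESeq2 also called 0 of the 10, against 0.943% of 1167 genes higher and 18.3% lower, and Tnfrsf12a was the only gene of the 10 among those 1167 genes. At an unadjusted p under 0.05, Nfkbia was higher in SRF-OE and 0 genes were lower, against 6.35% of all genes higher and 7.59% lower. When the library labelled GFP1 was left out, Tnfrsf1a rose, and 0 of the 10 genes fell. In that fit 1.98% of 13397 genes tested were higher and 0.97% lower, and Ccl2 was not tested. At an unadjusted p under 0.05, 5 of the 10 genes were then higher (Nfkb2, Rela, Relb, Tnfrsf12a and Tnfrsf1a), against 14.4% of all genes higher and 14% lower. DESeq2 called 4 of the 10 higher there (Nfkb2, Relb, Tnfrsf12a and Tnfrsf1a), against 6.29% of all genes higher and 6.14% lower. The SRF-OE libraries lay wholly above GFP replicates 2 and 3 for 7 genes (Nfkb2, Rela, Relb, Nfkbia, Tnfrsf12a, Tnfrsf1a and Ccl2) and wholly below for Nfkb1, against 30.8% and 30.2% of all genes. The log2 fold change, SRF-OE minus GFP, was positive for 8 of the 10 genes with the 5 libraries, with a median of 0.54, beside a positive value in 53.3% of all genes and a median of 0.030 over all genes. In the fit of 4 libraries it was positive for 8 of the 9 genes tested and for 53.2% of all genes, with medians of 0.65 and 0.035.

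**Figure D1:**
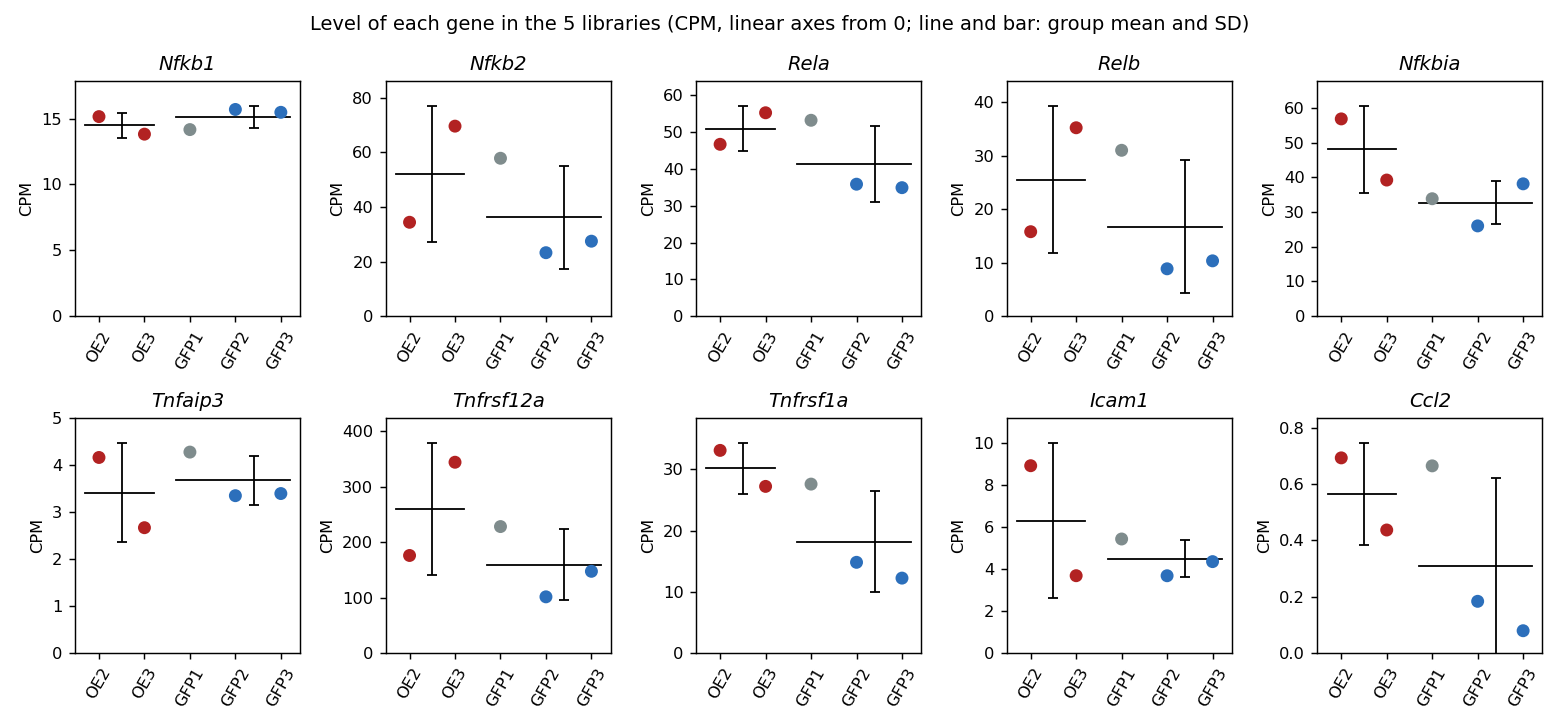
Level of each of the 10 genes in CPM (vertical axis, from 0) in each library, with SRF-OE replicates in red, the library labelled GFP1 in grey and GFP replicates 2 and 3 in blue, and with lines and bars for the mean and SD of SRF-OE (n = 2) and GFP (n = 3). Nfkbia is the gene whose SRF-OE points both lie above all 3 GFP points, while Nfkb1 lies between 13.8 and 15.7 CPM in all 5 libraries.

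Among the subunits, Relb, the partner of the alternative pathway, differed most between libraries. Relb (chromosome 7 of GRCm38, 19606217 to 19629438, minus strand) measured 15.8 and 35.2 CPM in SRF-OE replicates 2 and 3. The library labelled GFP1 had 31.0 CPM, and GFP replicates 2 and 3 had 8.85 and 10.3 CPM. The groups overlapped, because the library labelled GFP1 lay between the SRF-OE libraries, while both SRF-OE libraries lay above GFP replicates 2 and 3. The log2 fold change was 0.60 (SE is the standard error, here 0.60, and the edgeR adjusted p was 0.64), and the SRF-OE mean of 25.5 ± 13.7 CPM (SD, n = 2) stood against a GFP mean of 16.7 ± 12.4 CPM (SD, n = 3). Leaving out the library labelled GFP1 gave 1.42 (SE 0.39, adjusted p = 0.083), and leaving out SRF-OE replicate 3 turned it to -0.10.

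Nfkb2, which encodes the precursor of the subunit that pairs with RELB, was ordered in the same way. Nfkb2 (chromosome 19, 46304320 to 46312385, plus strand) was at 34.4 and 69.6 CPM in SRF-OE replicates 2 and 3. It was at 57.8 CPM in the library labelled GFP1 and at 23.3 and 27.5 CPM in GFP replicates 2 and 3. As for Relb, the groups overlapped through the library labelled GFP1, and SRF-OE replicate 3 was highest. Its log2 fold change came to 0.52 (SE 0.45, adjusted p = 0.59), 1.05 without the library labelled GFP1 (SE 0.33, adjusted p = 0.11) and -0.086 without SRF-OE replicate 3. In SRF-OE replicate 3 the level was 2.02 times that in SRF-OE replicate 2 for Nfkb2 and 2.23 times for Relb, and 3.26% of all genes tested differed by 2 times or more in this direction. Exons of Nfkb2 share 299 bases with Psd on the opposite strand, so reads there cannot be assigned to either gene without strand.

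The canonical subunits varied less. Rela (chromosome 19, 5637483 to 5648130, plus strand), the main transactivating subunit, was at 46.7 and 55.2 CPM in SRF-OE replicates 2 and 3, at 53.2 CPM in the library labelled GFP1 and at 35.8 and 34.9 CPM in GFP replicates 2 and 3. The log2 difference of Rela was 0.30 (SE 0.22, adjusted p = 0.52), and 0.53 (SE 0.15, adjusted p = 0.085) against GFP replicates 2 and 3 alone. Leaving out SRF-OE replicate 3 gave 0.16 and leaving out GFP replicate 3 gave 0.20. The order of the libraries was that of Relb and Nfkb2 at the top, with SRF-OE replicate 3 first, the library labelled GFP1 next and SRF-OE replicate 2 after it. Nfkb1 (chromosome 3, 135584655 to 135691547, minus strand), which encodes the precursor of the canonical partner of RELA, was at 15.2 and 13.8 CPM in SRF-OE and at 14.2, 15.7 and 15.5 CPM in GFP. Its highest library was 1.14 times its lowest, with a log2 fold change of -0.061 (SE 0.16, adjusted p = 0.87). Of the 10 genes, Nfkb1 had the narrowest range between libraries.

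Because Relb and Nfkb2 varied more than Rela and Nfkb1, the balance between the alternative and canonical subunits also differed between libraries. The ratio of Nfkb2 to Nfkb1 in RPKM was 2.84 and 6.30 in SRF-OE replicates 2 and 3, and 5.11, 1.85 and 2.22 in GFP replicates 1, 2 and 3. Its size depends on the length used for Nfkb2, while its order over the libraries does not. The ratio of Relb to Rela was 0.42 and 0.78 in SRF-OE and 0.72, 0.30 and 0.36 in GFP. Both ratios were lowest in GFP replicate 2, and the library labelled GFP1 stood with SRF-OE replicate 3. On the log2 scale the SRF-OE mean exceeded the GFP mean by 0.62 for Nfkb2 to Nfkb1 and by 0.41 for Relb to Rela, each with p = 0.5 in a two-sided exact permutation test over the libraries and 0.8 after adjustment over the 4 ratios computed. Of the others, Nfkbia to Rela gave a difference of 0.22 (p = 0.6, exact permutation test) and Tnfrsf12a to Tnfrsf1a of -0.10 (p = 1, exact permutation test). With 2 libraries against 3 this test cannot give a p under 0.1.

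**Figure D2:**
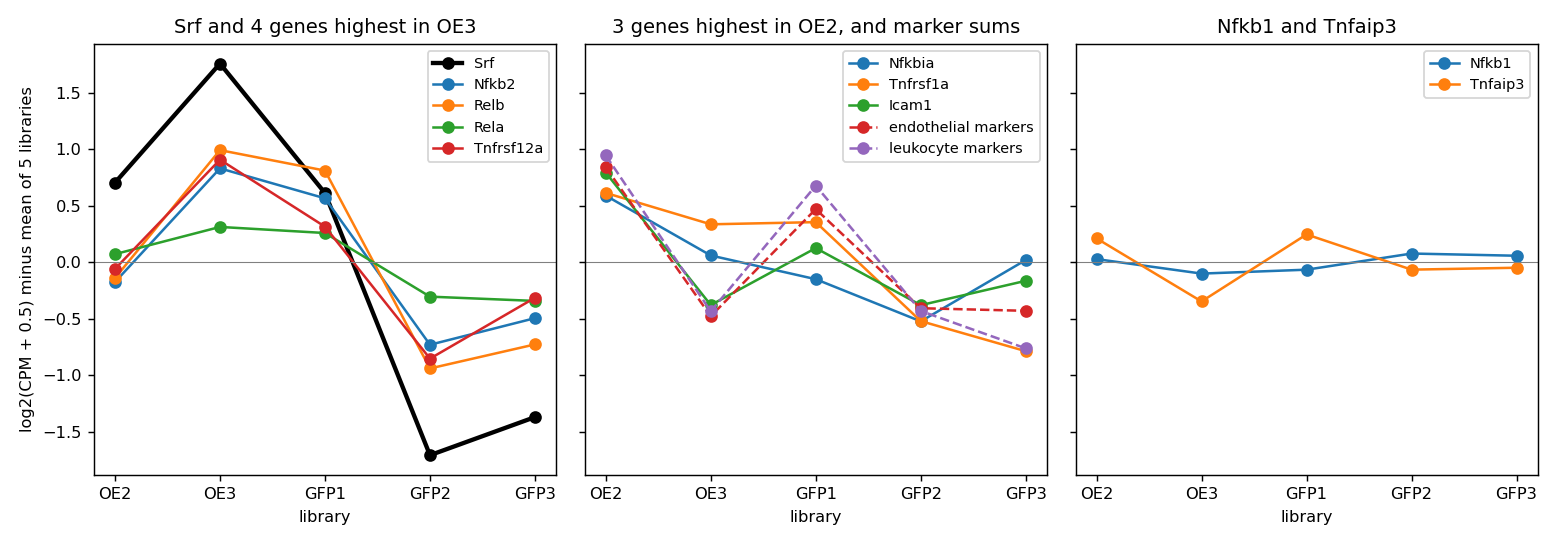
Log2(CPM + 0.5) of each gene minus its mean over the 5 libraries (vertical axis) by library (horizontal axis), for Srf and the 4 genes highest in SRF-OE replicate 3 (left), 3 genes highest in SRF-OE replicate 2 with the log2 summed CPM of endothelial and leukocyte markers as dashed lines (middle), and Nfkb1 and Tnfaip3 (right). The genes on the left share a high SRF-OE replicate 3 and low GFP replicates 2 and 3, and the marker sums in the middle are high in SRF-OE replicate 2 and in the library labelled GFP1.

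Of the receptors, Tnfrsf12a, which binds the cytokine TWEAK and can signal to both NF-kB branches, was the most abundant of the 10 genes. Tnfrsf12a (chromosome 17, 23675445 to 23677468, minus strand) was at 176 and 344 CPM in SRF-OE replicates 2 and 3. It was at 228 CPM in the library labelled GFP1 and at 101 and 147 CPM in GFP replicates 2 and 3. Both SRF-OE libraries exceeded GFP replicates 2 and 3, and the library labelled GFP1 lay between them. The means were 260 ± 119 CPM (SD, n = 2) for SRF-OE and 159 ± 64.2 CPM (SD, n = 3) for GFP, a log2 difference of 0.71 (SE 0.39, adjusted p = 0.43). This difference was 1.07 (SE 0.34, adjusted p = 0.11) with the library labelled GFP1 left out and 0.14 with SRF-OE replicate 3 left out. Tnfsf12, the gene of its ligand TWEAK, was at 0.98 and 0.70 CPM in SRF-OE and at 0.95, 0.55 and 0.16 CPM in GFP, so the ligand was near the limit of detection in the same libraries.

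Tnfrsf1a, the main receptor for TNF, was the gene of the 10 that passed without the library labelled GFP1. Tnfrsf1a (chromosome 6, 125349362 to 125362484, plus strand) was at 33.1 and 27.2 CPM in SRF-OE replicates 2 and 3 and at 14.8 and 12.2 CPM in GFP replicates 2 and 3. The library labelled GFP1 was at 27.6 CPM, slightly above SRF-OE replicate 3, and this made the groups overlap. With the 5 libraries, the SRF-OE mean of 30.2 ± 4.16 CPM (SD, n = 2) was above the GFP mean of 18.2 ± 8.23 CPM (SD, n = 3) by 0.72 on the log2 scale (SE 0.34, adjusted p = 0.38). Against GFP replicates 2 and 3 alone Tnfrsf1a rose by 1.16 (SE 0.19, adjusted p = 0.048), a mean 2.23 times theirs. Unlike Relb and Nfkb2, Tnfrsf1a was similar in both SRF-OE libraries, with a level in SRF-OE replicate 3 at 0.82 times that in SRF-OE replicate 2. Tnf itself was at 0.87 CPM or less in all 5 libraries, with 2 to 15 counts, and was not tested.

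The inhibitors differed from each other. Nfkbia, which encodes the inhibitor that retains NF-kB in the cytoplasm and is itself induced by NF-kB, was the gene of the 10 whose groups did not overlap with the 5 libraries. Nfkbia (chromosome 12, 55489410 to 55492647, minus strand) was at 56.8 and 39.2 CPM in SRF-OE replicates 2 and 3 and at 33.8, 26.0 and 38.1 CPM in GFP replicates 1, 2 and 3. SRF-OE replicate 3 exceeded GFP replicate 3 by a narrow margin, and GFP replicate 2 was lowest. The SRF-OE mean was 48.0 ± 12.5 CPM (SD, n = 2) and the GFP mean 32.7 ± 6.14 CPM (SD, n = 3), a log2 difference of 0.56 (SE 0.22, edgeR unadjusted p = 0.044, adjusted p = 0.36). Non-overlap in this direction was found in 16.1% of all genes tested. Leaving out the library labelled GFP1 gave 0.59 (SE 0.26, adjusted p = 0.20), and leaving out SRF-OE replicate 2 gave 0.26.

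Tnfaip3, the ubiquitin-editing enzyme that shuts off TNF receptor signaling and a further NF-kB target, ordered the libraries differently from Nfkbia. Tnfaip3 (chromosome 10, 19000910 to 19015657, minus strand) had 72 and 61 counts in SRF-OE and 90, 73 and 43 counts in GFP, which is 4.16 and 2.67 CPM against 4.28, 3.35 and 3.39 CPM. The library labelled GFP1 was highest and SRF-OE replicate 3 lowest, with 95% exact Poisson intervals of 3.44 to 5.26 CPM and 2.04 to 3.43 CPM that cover counting error only. Its log2 difference was -0.11 (SE 0.32, adjusted p = 0.88), and 0.018 (SE 0.34, adjusted p = 0.98) against GFP replicates 2 and 3 alone.

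The inflammatory targets were expressed at low levels. Icam1, an adhesion molecule for leukocytes that endothelial cells and stressed CMs can express, was highest in SRF-OE replicate 2. Icam1 (chromosome 9, 21015985 to 21028817, plus strand) was at 8.90 and 3.67 CPM in SRF-OE replicates 2 and 3 and at 5.42, 3.67 and 4.34 CPM in GFP replicates 1, 2 and 3. SRF-OE replicate 3 was thus level with GFP replicate 2, and the groups overlapped. The groups differed by 0.48 on the log2 scale (SE 0.41, adjusted p = 0.59). Leaving out SRF-OE replicate 2 reversed this to -0.29, so its direction rests on that library, while it was 0.65 (adjusted p = 0.39) against GFP replicates 2 and 3. Exons of Icam1 share 511 bases with Gm47079 on the opposite strand, a gene that is not in the count table.

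Ccl2, a chemokine that draws monocytes, was detected by few reads. Ccl2 (chromosome 11, 82035571 to 82037453, plus strand) had 12 and 10 counts in SRF-OE and 14, 4 and 1 counts in GFP. As levels these were 0.69 and 0.44 CPM in SRF-OE and 0.67, 0.18 and 0.079 CPM in GFP. The library labelled GFP1 was close to SRF-OE replicate 2, and the counting intervals of SRF-OE replicate 3 (0.21 to 0.80 CPM) and GFP replicate 2 (0.050 to 0.47 CPM) overlapped. SRF-OE was higher by 0.76 on the log2 scale (SE 0.83, adjusted p = 0.68). This was 0.40 to 1.07 when SRF-OE replicate 2 or 3 or GFP replicate 2 or 3 was left out. A difference was thus not detected, with few counts in each library and GFP libraries that differed from each other.

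Markers of other cell types moved with some of these genes. In sorted bulk cells a change in the share of another cell type and a change in RNA per cell cannot be told apart. All 14 endothelial markers were highest in SRF-OE replicate 2, and all 14 were higher in the library labelled GFP1 than in GFP replicates 2 and 3. Their summed level was 459 to 1144 CPM in SRF-OE and 474 to 886 CPM in GFP. Of 18 leukocyte markers, 10 were highest in SRF-OE replicate 2, with sums of 22.3 to 58.0 CPM in SRF-OE and 17.8 to 48.2 CPM in GFP, and Cd3e, Cd79a, S100a8 and S100a9 were under 1 CPM in every library. Fibroblast markers summed to 487 to 977 CPM in SRF-OE and to 402 to 542 CPM in GFP, and 10 of 12 were highest in SRF-OE replicate 2. Icam1, Ccl2, Nfkbia and Tnfrsf1a were also highest in that library, and the part of these cells in their levels was not tested. For Relb, Nfkb2, Rela and Tnfrsf12a the highest library was SRF-OE replicate 3, where the endothelial sum was the lowest of the 5 libraries, at 459 CPM. The smooth muscle and pericyte markers summed to 778 CPM in both SRF-OE libraries, 791 CPM in the library labelled GFP1 and 569 and 592 CPM in GFP replicates 2 and 3, so they too were higher in the first 3 of these libraries. Against GFP replicates 2 and 3 alone, the median log2 fold change was 1.00 for these markers, 0.94 for fibroblast markers, 0.94 for leukocyte markers and 0.76 for endothelial markers, beside 0.65 for the 9 genes tested, and the part of these cells in the levels of Relb, Nfkb2, Rela and Tnfrsf12a was not tested. Red cell markers summed to 6.71 and 5.42 CPM in SRF-OE and to 0.52, 1.42 and 3.55 CPM in GFP. Hba-a1 and Hba-a2 had 0 counts, and the settings for multi-mapping reads are not given.

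**Figure D3:**
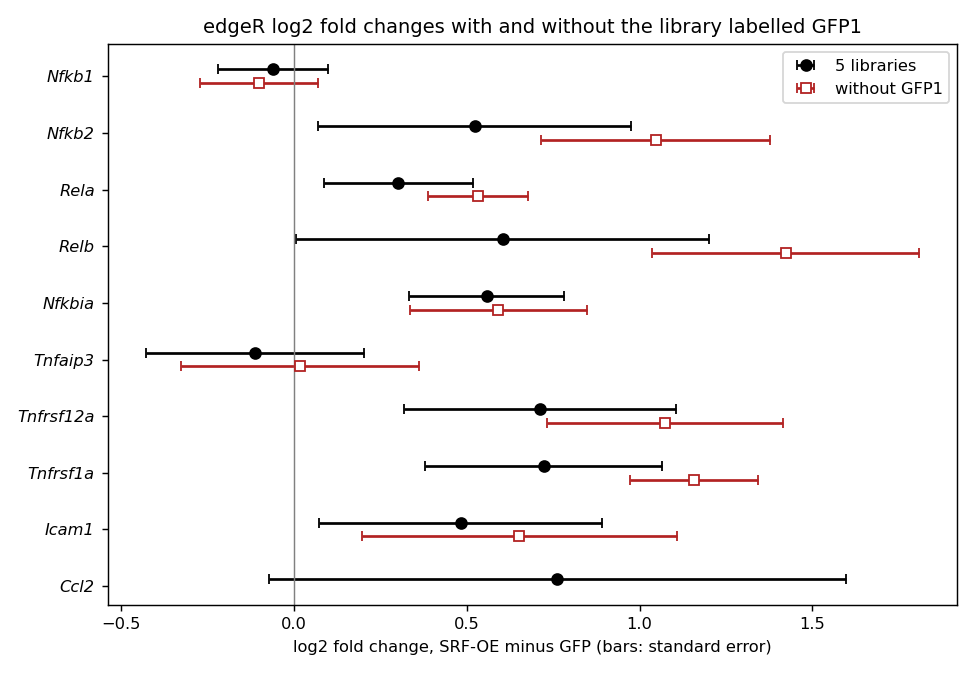
Log2 fold change, SRF-OE minus GFP, of each of the 10 genes (horizontal axis) with its standard error as a bar, for the 5 libraries as labelled (filled) and without the library labelled GFP1 (open, not tested for Ccl2). Relb moved most, from 0.60 to 1.42, whereas Nfkbia moved from 0.56 to 0.59 and Nfkb1 stayed near 0.

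The rest of the pathway was looked at through a list of 61 genes, namely other NF-kB family members, ligands, receptors, adaptors and kinases, and negative regulators. Of these, 50 were tested and 0 passed in either direction with the 5 libraries or without the library labelled GFP1, by edgeR's quasi-likelihood test. At an unadjusted p under 0.05 with the 5 libraries, 1 was higher and 2 were lower, against 6.35% and 7.59% of all genes, and the median log2 fold change was 0.088. With the library labelled GFP1 left out, 10 were higher and 6 lower at that limit, against 14.4% and 14% of all genes. The ligand genes were nearly silent, with 9 of 10 under 1 CPM in every library.

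Of those with a mean of at least 1 CPM, the pathway genes with the smallest p were Rel, Tab2 and Ikbkg. Rel, the subunit typical of lymphoid cells, was at 7.34 and 7.21 CPM in SRF-OE and at 10.5, 13.1 and 12.6 CPM in GFP, with no overlap and a log2 difference of -0.73 (SE 0.20, adjusted p = 0.35). Non-overlap in this direction was found in 17.3% of all genes. Tab2, an adaptor of the kinase TAK1, was at 28.3 and 30.9 CPM in SRF-OE and at 21.5, 22.3 and 21.2 CPM in GFP, which differ by 0.45 on the log2 scale (SE 0.13, adjusted p = 0.35). Ikbkg, the regulatory subunit of the IkB kinase, was at 56.7 and 73.7 CPM in SRF-OE and at 78.2, 90.2 and 86.9 CPM in GFP, which differ by -0.38 on the log2 scale (SE 0.15, adjusted p = 0.36). In these 3 genes the library labelled GFP1 lay outside the SRF-OE range, which choosing them by p in this comparison favors.

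Other inflammatory targets were a list of 31 genes, of which 20 were tested and 14 were under 1 CPM in every library. With the 5 libraries 0 passed, and 3 were higher and 4 lower at an unadjusted p under 0.05 in edgeR's test, against 6.35% and 7.59% of all genes. Of those with a mean of at least 1 CPM, the smallest p was that of Tnfaip2, at 63.2 and 68.3 CPM in SRF-OE and at 81.6, 114 and 109 CPM in GFP, which differ by -0.63 on the log2 scale (SE 0.17, adjusted p = 0.35). Gadd45b, a stress-response gene, was at 13.0 and 15.1 CPM in SRF-OE and at 6.18, 6.56 and 9.95 CPM in GFP, which differ by 0.90 on the log2 scale (SE 0.26, adjusted p = 0.35). Ier3, an immediate early gene, was at 30.1 and 25.4 CPM in SRF-OE and at 38.9, 33.8 and 39.5 CPM in GFP, which differ by -0.43 on the log2 scale (SE 0.15, adjusted p = 0.35). The groups of these 3 genes did not overlap, which choosing them by p in this comparison favors. Over all genes tested, 16.1% were higher and 17.3% lower without overlap.

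Once the library labelled GFP1 was left out, 17 targets were tested, and Ptgs2 and Cx3cl1 rose while Tnfaip2 fell, against 1.98% of all genes higher and 0.97% lower. At an unadjusted p under 0.05, 7 of the 17 were higher and 4 lower, against 14.4% and 14% of all genes. Ptgs2 and Cx3cl1 were singled out after their values were seen. Ptgs2, the inducible cyclooxygenase, had 199 and 870 counts in SRF-OE and 7 and 4 counts in GFP replicates 2 and 3, and it rose by 6.26 on the log2 scale (SE 0.77, adjusted p = 0.042). The library labelled GFP1 had 389 counts of Ptgs2, between the SRF-OE libraries, and with it the difference was 1.93 (SE 1.45, adjusted p = 0.54). Cx3cl1, a membrane-bound chemokine, was at 14.5 and 22.3 CPM in SRF-OE and at 6.65 and 6.55 CPM in GFP replicates 2 and 3. Cx3cl1 rose by 1.48 (SE 0.26, adjusted p = 0.0499), and the library labelled GFP1 was above all others at 25.4 CPM. With that library included, Cx3cl1 differed by 0.51 (SE 0.62, adjusted p = 0.71). Tnfaip2 fell by 0.76 (SE 0.12, adjusted p = 0.047).

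**Figure D4:**
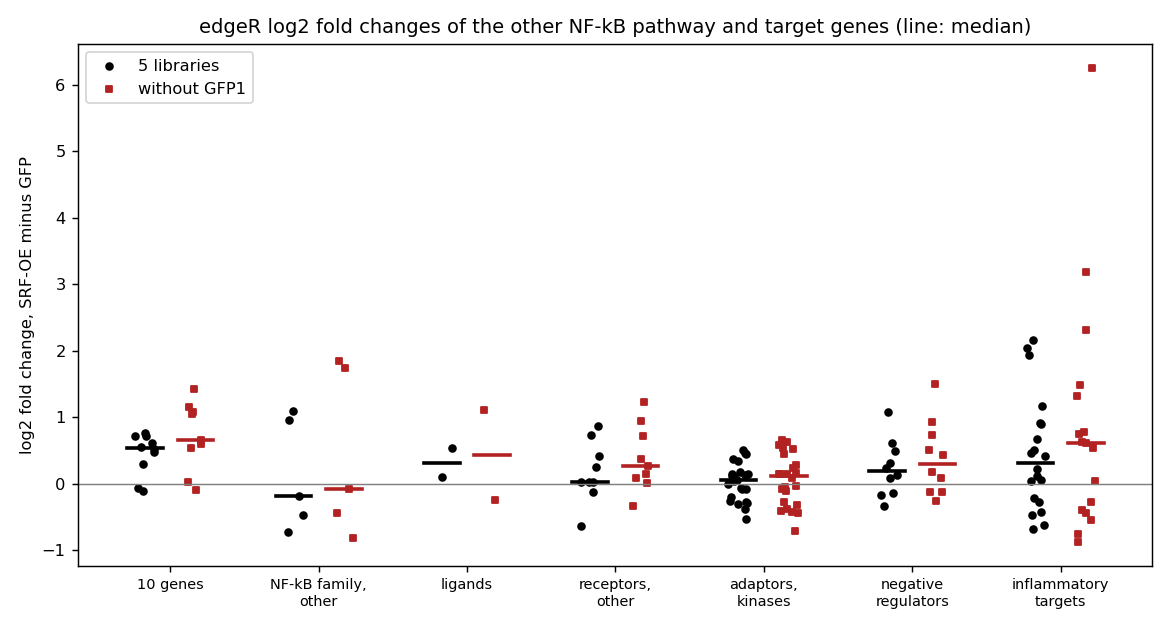
Log2 fold change, SRF-OE minus GFP (vertical axis), of the 10 genes and of the other NF-kB pathway and target genes by list (horizontal axis), with a point per gene tested and a line at the list's median, for the 5 libraries (black) and without the library labelled GFP1 (red). The adaptors and kinases lie around 0, with a median of 0.050, while the inflammatory targets spread widest, up to Ptgs2 at 6.26.

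As a plain fold from the lowest to the highest library, Ccl2 spanned 8.79 on few counts, beside 3.97 for Relb. On the log2 scale of CPM + 0.5, Relb had the widest range of the 10 genes, 1.93. Of the 8522 other genes with a mean of at least 10 CPM, those whose values over the 5 libraries lay nearest to it, after removing each gene's mean, were Srxn1, Hrasls and Setd8, with root mean square differences of 0.12, 0.14 and 0.14. Srxn1 was at 34.4 and 84.3 CPM in SRF-OE and at 64.6, 23.4 and 21.9 CPM in GFP. Its library labelled GFP1 lay between the SRF-OE libraries, which follows from choosing genes by likeness to Relb. These are likenesses over only 5 libraries, which differ in depth and in the levels of cell type markers.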

How the data were processed

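SMART-Seq v4 and Nextera XT kits, which do not mark strand, were used to make RNA-seq libraries of FACS-sorted GFP+ CMs. Per the submitters' processing notes, STAR 2.5.3a (alignment, mm10) and featureCounts of Subread 1.5.2 were the tools of the authors. Strand and multi-mapping settings are not given in the sources used here. The deposited table holds raw counts for 5 libraries, and under the name of SRF-OE replicate 1 it holds gene lengths, from 20 to 104320 bp. The labels list 6 libraries, and the 5 with counts entered the fits. Columns were assigned to libraries by name, although the names may be displaced by 1 column, which cannot be settled from the labels. Totals run from 14137433 to 23159631 counts, a depth at which Ccl2 has 1 to 14 counts, and intervals cover counting error only. Whether replicates are separate animals is not stated in the labels, so p-values measure the spread between these libraries.

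Differences were tested with edgeR 4.0.16 (R 4.3.3; filterByExpr, TMM, glmQLFit and glmQLFTest), the quasi-likelihood test, with Benjamini-Hochberg adjustment over all genes tested and a cutoff of 0.05. SE was computed as |log2 fold change|/sqrt(F). CPM is counts per 1e6 of the TMM-scaled library size, and RPKM is CPM per kb of the deposited length. The alternatives comprised DESeq2 1.42.0, DESeq2 size factors within edgeR, testing without the expression filter, requiring 10 counts in each library, a replicate block, and leaving out each library. The fits were run on simulated independent counts with correct group labels. This does not cover a displaced column name or shifts in cell composition between libraries. The 10 genes and the lists were chosen with earlier results of these data known. Besides the 10, the text names the 3 genes with the smallest p in the pathway list and in the target list, at a mean of at least 1 CPM, and the 3 genes nearest to the one with the widest range. Positions are from GENCODE M21 (GRCm38, the build of mm10).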

Additional observations from a re-analysis of the deposited data

How the results depend on the processing

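The calls depended on which libraries and block were used. By edgeR with the 5 libraries, 0 genes rose and 0 fell (873 and 1044 at an unadjusted p under 0.05), and DESeq2 gave 11 and 213, with 1 of the other targets lower. The replicate number as a block gave 582 (4.23% of those tested) and 432 (3.14%). Under the block, 4 of the 10 genes were called higher, Relb (1.30), Tnfrsf1a (1.16), Tnfrsf12a (1.01) and Nfkb2 (0.95), along with 2 other pathway genes and 2 other targets, 2 targets were lower, and Srf was at 2.78. What the replicate numbers stand for is not stated in the labels. Deviations of same-numbered libraries correlated at 0.40 for number 2 and -0.074 for number 3 across genes. Without the library labelled GFP1 the correlation for number 2 was 0.22. With 2 SRF-OE libraries their deviations mirror each other, so these values are not separate checks. By Xist both libraries numbered 2 (2545 and 1936 counts) differ from the others (8 to 17 counts). Both libraries numbered 3 are low (17 and 9 counts), so the block also takes up this difference in Xist. Fits that leave out 1 library, in which a lone SRF-OE library is assumed to vary like the other groups, gave 0 to 265 genes higher and 0 to 130 lower, 0 to 1 of the 10 genes higher, 0 to 2 other targets higher, 0 to 1 lower, and 1.13 to 2.87 for Srf. They ranged from -0.086 to 1.05 for Nfkb2, -0.10 to 1.42 for Relb, -0.46 to 0.17 for Tnfaip3, -0.29 to 0.98 for Icam1, 0.16 to 0.53 for Rela, 0.26 to 0.79 for Nfkbia, 0.14 to 1.11 for Tnfrsf12a, 0.51 to 1.16 for Tnfrsf1a and 0.40 to 1.07 for Ccl2, which was at 2.04 under the block.
Without the library labelled GFP1, DESeq2 gave 853 genes higher and 832 lower, with 4 of the 10 genes, 3 other pathway genes and 3 other targets higher and 3 targets lower, and Srf at 2.87. The block gave 547 (4.08%) and 392 (2.93%), with 3 of the 10 genes, 2 pathway genes and 2 targets higher, 2 targets lower and Srf at 2.78. DESeq2's size factors gave 330 and 206, with 1 of the 10 genes and 2 targets higher, 1 target lower and Srf at 2.87. Directions turned for Tnfaip3 (0.018 without that library, 0.0025 with the block, 0.0059 with DESeq2, 0.011 with its size factors, and 0.17 without SRF-OE replicate 3), Nfkb2 (-0.086) and Relb (-0.10) without SRF-OE replicate 3, and Icam1 (-0.29) without SRF-OE replicate 2. The cause was not tested. Of 116 values of the 10 genes under an alternative, 95 kept their direction and their side of the cutoff. Ccl2 had few counts, and requiring at least 10 counts in every library removed it.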

Other observations

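Nfkbiz, Nfkbie and Csf1 were singled out after their values were seen. Nfkbiz, which encodes a nuclear member of the IkB family, was at 6.82 and 13.3 CPM in SRF-OE replicates 2 and 3, at 8.41 CPM in the library labelled GFP1 and at 2.16 and 3.55 CPM in GFP replicates 2 and 3. The groups differed by 1.09 on the log2 scale (edgeR adjusted p = 0.42), and by 1.85 (adjusted p = 0.066) when the library labelled GFP1 was left out. Nfkbie, a cytoplasmic inhibitor of the same family, was at 2.49 and 2.01 CPM in SRF-OE and at 2.04, 0.64 and 0.71 CPM in GFP. Csf1, a macrophage growth factor, was at 29.6 and 24.2 CPM in SRF-OE and at 31.0, 54.5 and 44.6 CPM in GFP, a log2 difference of -0.69 (adjusted p = 0.36), which was -0.88 (adjusted p = 0.055) against GFP replicates 2 and 3.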
